A study of Homo sapiens with 12 samples.

Results

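The transcripts of 10 genes around the coactivator YAP were followed in MIA PaCa-2 and Capan-1, lines of human pancreatic ductal adenocarcinoma (PDAC) cells, with and without knockdown of Focal Adhesion Kinase (FAK). The genes were chosen by name as the coactivators YAP1 and WWTR1, the DNA-binding factors TEAD1 and TEAD4, and the YAP and TEAD targets CTGF, CYR61, ANKRD1, AMOTL2, LATS2 and AXL. They are 10 of 34599 gene names and 15 of 47228 gene probes on the Illumina HumanHT-12 v4 array, and 14 of these probes were among the 24207 that were tested. All cells carried a doxycycline-inducible hairpin in the PLKO.1 tet-on backbone with a puromycin marker, either a scrambled control (shCtrl) or 1 of 2 hairpins against FAK, named sh1209 and sh1319 in the sample labels. The label shFAK1319 in Capan-1 was read as sh1319. Doxycycline was given to all groups at 50 ng/ml for 96 hours, and puromycin was kept at 3.5 ug/ml in the MIA PaCa-2 medium and at 1.5 ug/ml in that of Capan-1. Each of the 6 groups had 2 arrays, and nothing states that these came from separate cultures, so p-values measure the spread between arrays, which may be technical.

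YAP and its paralog TAZ, the product of WWTR1, are transcriptional coactivators without a DNA-binding domain of their own, and they reach their target genes mainly by binding TEAD factors. The Hippo kinases, LATS1 and LATS2 among them, phosphorylate YAP and TAZ and keep them out of the nucleus. Adhesion to the extracellular matrix and cytoskeletal tension are known to favor nuclear YAP, and integrin signaling through FAK is one of the inputs. An array measures transcripts, and neither the phosphorylation nor the location of YAP was measured here.

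TEAD factors bind a short core, GGAATG, and the windows before the starts of CTGF and ANKRD1 are shown since they hold the most matches to it among these genes. The sequences are those of RefSeq (GRCh38.p14), the 250 bases before the annotated start, read on the strand of the gene, with the motif in capitals. CTGF, now named CCN2, is at chr6:131951373-131951622 on the minus strand, and ANKRD1 is at chr10:90921088-90921337, also on the minus strand.
CTGF: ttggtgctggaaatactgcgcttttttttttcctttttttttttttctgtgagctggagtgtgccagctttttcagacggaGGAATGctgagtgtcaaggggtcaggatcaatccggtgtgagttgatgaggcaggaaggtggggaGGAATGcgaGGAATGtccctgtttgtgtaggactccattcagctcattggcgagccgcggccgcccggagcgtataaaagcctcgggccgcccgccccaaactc
ANKRD1: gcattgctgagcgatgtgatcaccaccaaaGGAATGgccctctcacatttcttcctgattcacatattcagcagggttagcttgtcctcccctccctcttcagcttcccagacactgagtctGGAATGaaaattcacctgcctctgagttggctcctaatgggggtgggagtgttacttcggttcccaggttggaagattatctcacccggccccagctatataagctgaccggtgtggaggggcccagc

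Both strands were searched for GGAATG, and matches do not overlap. The window of CTGF held 3 matches, at 169, 104 and 95 bases before the start, and that of ANKRD1 held 2, at 220 and 128 bases. YAP1 had 1 match, as did 1 of the 2 windows of AMOTL2 and 1 of the 2 windows of AXL. No match was found in the 2 windows of WWTR1 or in that of LATS2. Of 35116 RefSeq windows of this length, 11.9% held at least 1 match, 0.94% at least 2 and 0.0826% at least 3. A match describes the letters in a window and is no evidence of binding. Windows for TEAD1, TEAD4 and CYR61, now CCN1, were not used here.

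**Figure D1:**
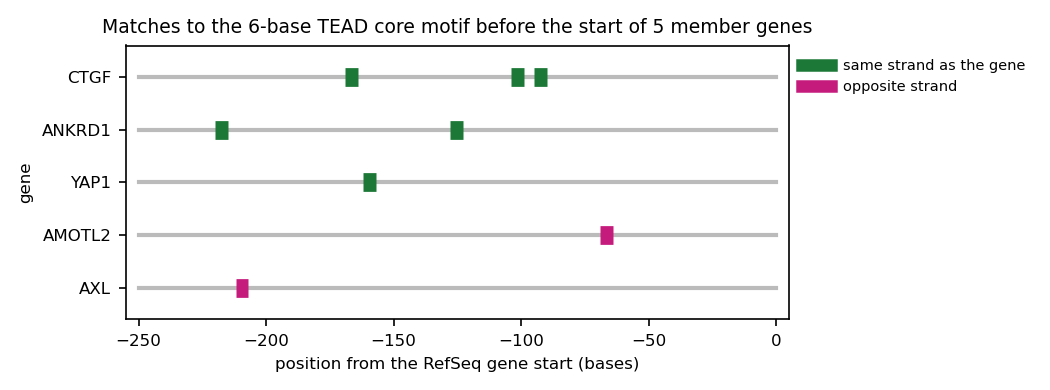
Position of each match to the TEAD core motif in the 250 bases before the RefSeq start of 5 genes, with the distance from the start in bases on the x axis. For AMOTL2 and AXL the window that holds a match is drawn. CTGF has 3 matches and ANKRD1 has 2, all on the strand of the gene.

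FAK is encoded by PTK2, and its probe 450253 was measured first as a check of the hairpins. In MIA PaCa-2 it was left at 21.1% of shCtrl with sh1209 and 17.9% with sh1319. In Capan-1 it was left at 65.4% with sh1209 and 29.2% with sh1319. The knockdown was thus shallower with sh1209 than with sh1319 in Capan-1 (log2 difference 1.16, SE 0.11, adjusted p = 6.2e-05). The other tested PTK2 probe, 2680750, was not past the threshold with either hairpin in either line (log2 changes from -0.46 to 0.31). Of the epithelial markers CDH1, EPCAM, KRT7, KRT8, KRT18 and KRT19, all 6 were detected on every Capan-1 array, whereas KRT8 and KRT18 alone were detected on every MIA PaCa-2 array and CDH1 on none. Of the mesenchymal markers, VIM read 13.1 to 13.4 by probe 830593 in MIA PaCa-2 and 6.15 at most in Capan-1, where its probe 7050019 was undetected, CDH2 was detected on all 6 Capan-1 arrays and no MIA PaCa-2 array, and ZEB1 on none. No marker of fibroblasts (PDGFRB, DCN, LUM, FAP) was detected on all arrays of either line. Of the leukocyte markers, CD68, a lysosomal protein, was detected on all arrays of both lines, while PTPRC and CD3E were detected on 1 array each at most. Of the endothelial markers, PECAM1 was detected on 5 of 6 Capan-1 arrays and 2 of 6 MIA PaCa-2 arrays, VWF on 2 Capan-1 arrays and CDH5 on none. The part of these markers in the results was not tested. Detected means a detection p under 0.05 against the negative control probes.

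The largest log2 changes among these genes were those of CTGF in MIA PaCa-2, and CTGF moved in opposite directions in the cell lines. CTGF is a secreted matricellular protein and a standard readout of YAP and TEAD. On the log2 scale of normalized intensity, its probe 5690687 read 8.33 and 8.15 in MIA PaCa-2 with shCtrl, 5.70 and 5.22 with sh1209, and 6.01 and 6.27 with sh1319. No array with a FAK hairpin reached the shCtrl arrays. The level fell to 14.6% of shCtrl with sh1209 (log2 change -2.78, SE 0.16, adjusted p = 4.4e-07) and to 23.3% with sh1319 (log2 change -2.10, SE 0.16, adjusted p = 2.9e-06). The size depends on the background correction, and without it the log2 changes were -1.68 and -1.39, both past the threshold. In Capan-1 the same probe read 7.69 and 7.78 with shCtrl, 9.27 and 9.18 with sh1209, and 8.05 and 7.90 with sh1319. It rose 2.81-fold with sh1209 (log2 change 1.49, SE 0.16, adjusted p = 9.8e-05). With sh1319 both arrays lay above both shCtrl arrays, but the difference of 0.24 did not pass the test (95% interval -0.12 to 0.59, adjusted p = 0.42).

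The other CTGF probe, 2640292, gave the same order of groups in each cell line. In MIA PaCa-2 it read 7.19 and 7.15 with shCtrl, 5.41 and 5.63 with sh1209, and 6.05 and 6.09 with sh1319. The arrays of the 3 groups did not overlap. CTGF fell to 31.8% of shCtrl by this probe with sh1209 (log2 change -1.65, adjusted p = 2.8e-06) and to 46.6% with sh1319 (log2 change -1.10, adjusted p = 4.3e-05), or by log2 changes of -0.87 and -0.63 without background correction. In Capan-1 it read 6.78 and 6.92 with shCtrl, 7.87 and 7.73 with sh1209, and 7.26 and 7.21 with sh1319, again without overlap. The rise with sh1209 was 0.95 (adjusted p = 2.7e-04), and the difference with sh1319 was 0.39 (95% interval 0.12 to 0.65, adjusted p = 0.055). That last value sits at the threshold and passed it under several other settings.

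The hairpins also differed from each other in the size of the CTGF change. By probe 5690687, CTGF was lower with sh1209 than with sh1319 in MIA PaCa-2 (log2 difference -0.68, adjusted p = 0.0099) and higher with sh1209 in Capan-1 (log2 difference 1.25, adjusted p = 5.1e-04). Probe 2640292 gave -0.55 (adjusted p = 0.0056) and 0.57 (adjusted p = 0.011). By the mean of either probe, sh1209 moved CTGF further in each line, while in Capan-1 it removed less of PTK2 by PTK2 probe 450253 alone. In MIA PaCa-2 the difference by probe 5690687 was -0.44 without sh1209 replicate 2 (adjusted p = 0.095) and was also lost without sh1319 replicate 2 (adjusted p = 0.085) and with 1 cell line fitted alone (adjusted p = 0.055), and that by probe 2640292 was lost without sh1209 replicate 1 (adjusted p = 0.056). In Capan-1 the difference by probe 2640292 was lost with median scaling (adjusted p = 0.16) and without sh1209 replicate 1 (0.089) or sh1319 replicate 2 (0.061), while no array left out ended that by probe 5690687. Without background correction the MIA PaCa-2 differences were -0.29 by probe 5690687 and -0.24 by probe 2640292, and both passed. Whether the depth of the knockdown has a part in the CTGF difference was not tested. The order of CTGF groups by probe 5690687, from highest to lowest, was Capan-1 sh1209, MIA PaCa-2 shCtrl, Capan-1 sh1319, Capan-1 shCtrl, MIA PaCa-2 sh1319 and MIA PaCa-2 sh1209. Of these neighbors, Capan-1 sh1319 and Capan-1 shCtrl were not told apart by the test, and neighbors that differ in both line and hairpin were not tested.

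**Figure D2:**
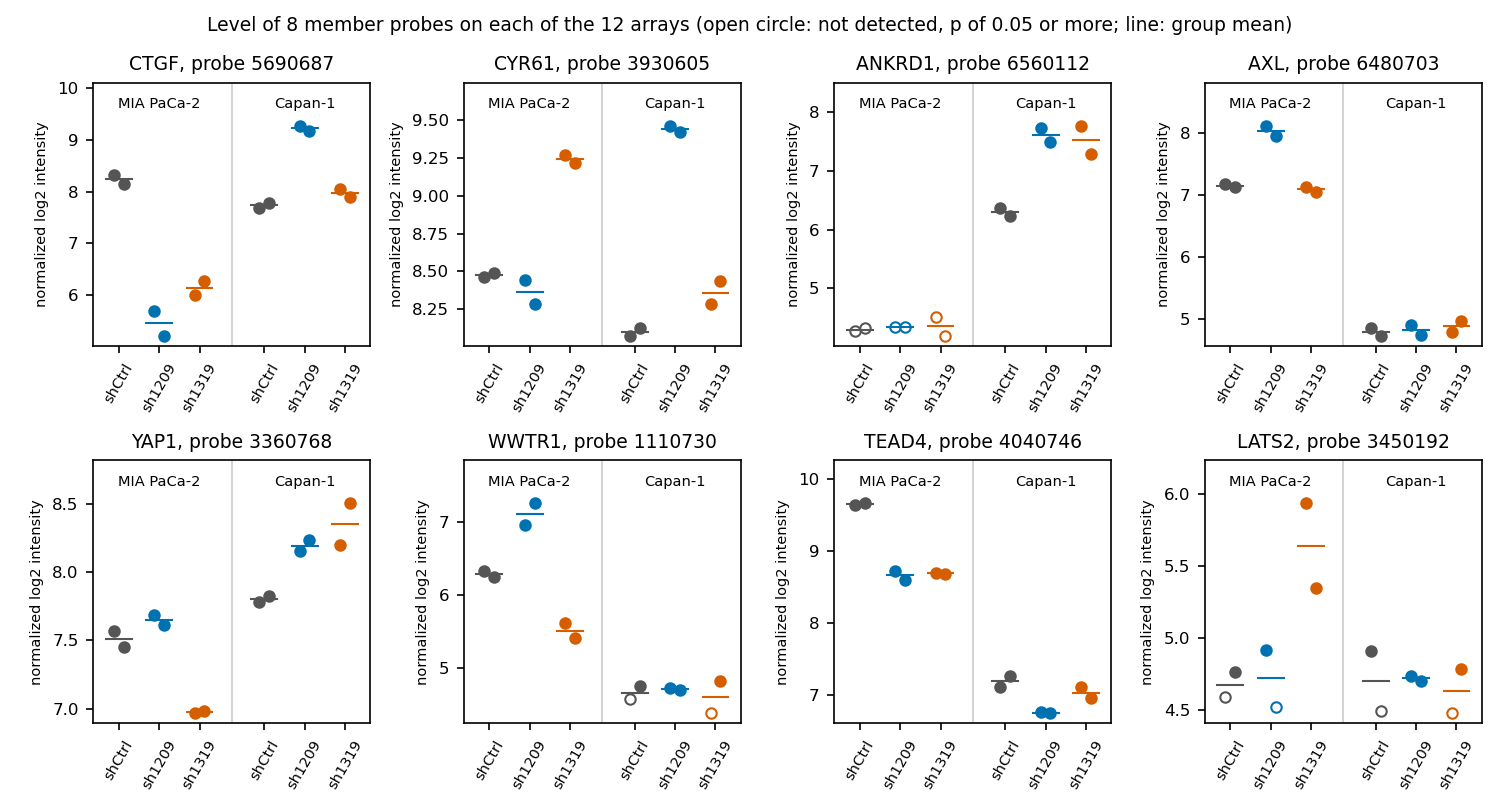
Normalized log2 intensity of 8 probes on each array, 1 panel per probe, with the cell line and hairpin on the x axis. Circles are arrays, open where the probe was not detected, and the line is the mean of 2 arrays. CTGF falls with both FAK hairpins in MIA PaCa-2 and is highest with sh1209 in Capan-1, and ANKRD1 is undetected on all MIA PaCa-2 arrays.

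CYR61, a matricellular protein of the same family as CTGF, had no fall that passed the test in MIA PaCa-2. Its probe 3930605 read 8.46 and 8.49 in MIA PaCa-2 with shCtrl, 8.44 and 8.29 with sh1209, and 9.27 and 9.22 with sh1319. It rose 1.71-fold with sh1319 (log2 change 0.77, SE 0.11, adjusted p = 3.7e-04), while the difference with sh1209 was -0.11 (95% interval -0.36 to 0.14, adjusted p = 0.58). The sh1209 arrays lay below those of shCtrl. In Capan-1 the probe read 8.07 and 8.12 with shCtrl, 9.46 and 9.42 with sh1209, and 8.28 and 8.43 with sh1319. The rise with sh1209 was 2.54-fold (log2 change 1.35, SE 0.11, adjusted p = 1.2e-05). With sh1319 the difference was 0.26 (95% interval 0.01 to 0.51, adjusted p = 0.17), although its arrays lay above those of shCtrl. CYR61 was therefore lower with sh1209 than with sh1319 in MIA PaCa-2 (log2 difference -0.88, adjusted p = 1.6e-04) and higher in Capan-1 (log2 difference 1.09, adjusted p = 9.6e-05).

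ANKRD1, a nuclear ankyrin repeat protein and a further target of YAP and TEAD, was measurable in Capan-1 alone. No MIA PaCa-2 array detected its probe 6560112, and the readings there were 4.20 to 4.51. In Capan-1 the probe read 6.37 and 6.24 with shCtrl, 7.73 and 7.50 with sh1209, and 7.77 and 7.29 with sh1319. ANKRD1 rose with both hairpins, 2.48-fold with sh1209 (log2 change 1.31, SE 0.17, adjusted p = 3.0e-04) and 2.34-fold with sh1319 (log2 change 1.23, SE 0.17, adjusted p = 7.1e-04). Without background correction the log2 changes were 0.83 and 0.77, both past the threshold. The hairpins were not told apart for ANKRD1 in Capan-1 (log2 difference 0.09, 95% interval -0.28 to 0.45, adjusted p = 0.85).

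AXL, a receptor tyrosine kinase for GAS6, rose with sh1209 in MIA PaCa-2 and not with sh1319. Probe 6480703 read 7.17 and 7.13 with shCtrl, 8.11 and 7.95 with sh1209, and 7.13 and 7.05 with sh1319 in that line. The rise with sh1209 was 1.84-fold (log2 change 0.88, SE 0.12, adjusted p = 4.5e-04). With sh1319 the difference was -0.06 (95% interval -0.33 to 0.21, adjusted p = 0.80), and the difference between the hairpins passed the test (log2 difference 0.94, adjusted p = 1.9e-04). The other AXL probe, 4640403, gave 0.72 with sh1209 (adjusted p = 0.046), a call that was lost when any array of MIA PaCa-2 was left out (adjusted p up to 0.18). In Capan-1 AXL was dim, with readings of 4.74 to 4.98 by probe 6480703 and 4.60 to 5.58 by probe 4640403, and neither probe was past the threshold. AMOTL2, an angiomotin family protein that binds YAP and is itself a target, passed the test in no comparison, and its readings lay between 4.63 and 5.56 on all 12 arrays.

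LATS2, a Hippo kinase that is also induced by YAP, was close to background in every group but one. Its probe 3450192 read 5.94 and 5.34 in MIA PaCa-2 with sh1319 and between 4.48 and 4.92 on the other 10 arrays, of which 6 detected it. The rise with sh1319 in MIA PaCa-2 was 0.97 (SE 0.21, adjusted p = 0.0061). Without sh1319 replicate 1, the higher of the pair, it was 0.68 and no longer passed (adjusted p = 0.066), and without background correction it was 0.34.

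YAP1, the coactivator itself, changed with sh1319 in both lines and in opposite directions. Probe 3360768 read 7.57 and 7.45 in MIA PaCa-2 with shCtrl, 7.69 and 7.61 with sh1209, and 6.97 and 6.98 with sh1319. YAP1 fell to 69.2% of shCtrl with sh1319 (log2 change -0.53, SE 0.13, adjusted p = 0.0088) and differed by 0.14 with sh1209 (adjusted p = 0.51). In Capan-1 it read 7.78 and 7.83 with shCtrl, 8.15 and 8.23 with sh1209, and 8.20 and 8.50 with sh1319. All 4 arrays with a FAK hairpin were above the shCtrl arrays. The rise passed the test with sh1319 (1.46-fold, log2 change 0.55, adjusted p = 0.014) but not with sh1209 (0.39, adjusted p = 0.056). The sh1209 value passed under several other settings, such as without background correction (adjusted p = 0.0076). The hairpins were not told apart for YAP1 in Capan-1 (log2 difference -0.16, adjusted p = 0.53). The YAP1 fall in MIA PaCa-2 was -0.40 when arrays were scaled to 1 median instead of quantile-normalized (median scaling, adjusted p = 0.27) and -0.47 without shCtrl replicate 1 (adjusted p = 0.059). The rise in Capan-1 with sh1319 did not pass without either shCtrl array or without sh1319 replicate 2 (adjusted p of 0.080, 0.059 and 0.11).

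WWTR1 moved in opposite directions with the 2 hairpins in MIA PaCa-2. Probe 1110730 read 6.34 and 6.25 with shCtrl, 6.96 and 7.27 with sh1209, and 5.62 and 5.41 with sh1319. The groups did not overlap, and the log2 change was 0.82 with sh1209 (SE 0.16, adjusted p = 0.0043) and -0.78 with sh1319 (SE 0.16, adjusted p = 0.0042). The hairpins differed by 1.60 (SE 0.16, adjusted p = 2.8e-05). Without background correction the changes were 0.49 and -0.35 and the difference 0.84, all past the threshold. By probe 450253, the PTK2 levels under these hairpins in this line were not told apart (log2 difference 0.24, 95% interval -0.01 to 0.49, adjusted p = 0.17). By probe 2680750, which was near background in this line, PTK2 was higher with sh1209 than with sh1319 (log2 difference 0.59, adjusted p = 0.021). In Capan-1 the probe read 4.39 to 4.82, was detected on 4 of 6 arrays and did not pass the test with either hairpin.

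TEAD4 fell with both hairpins in MIA PaCa-2. Its probe 4040746 read 9.63 and 9.66 there with shCtrl, 8.72 and 8.60 with sh1209, and 8.69 and 8.68 with sh1319. The levels were 50.5% of shCtrl with sh1209 (log2 change -0.99, SE 0.11, adjusted p = 1.2e-04) and 51.5% with sh1319 (log2 change -0.96, SE 0.11, adjusted p = 8.8e-05), and the hairpins were not told apart (log2 difference -0.03, 95% interval -0.28 to 0.22). In Capan-1 the probe read 7.10 and 7.26 with shCtrl, 6.75 and 6.75 with sh1209, and 7.10 and 6.95 with sh1319. The fall of TEAD4 in Capan-1 with sh1209 was -0.43 (adjusted p = 0.023), but it was -0.16 with median scaling (adjusted p = 0.74) and did not pass without shCtrl replicate 2 or without either sh1209 array (adjusted p of 0.16, 0.092 and 0.099). With sh1319 the difference was -0.16 (adjusted p = 0.46), and 0.12 with median scaling.

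Other probes of the TEAD factors were near background. TEAD4 probe 3290286 was detected on all 6 MIA PaCa-2 arrays and on no Capan-1 array, with a difference in MIA PaCa-2 of -0.38 with sh1209 (adjusted p = 0.071) and a fall of -0.47 with sh1319 (adjusted p = 0.022). This call was lost with median scaling (adjusted p = 0.30) and without shCtrl replicate 1 or either sh1319 array (adjusted p of 0.11, 0.060 and 0.11). TEAD4 probe 2570279 and TEAD1 probe 7650601 were each detected on 2 of 12 arrays and passed no test. TEAD1 probe 3930402 was detected on none and was not tested.

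**Figure D3:**
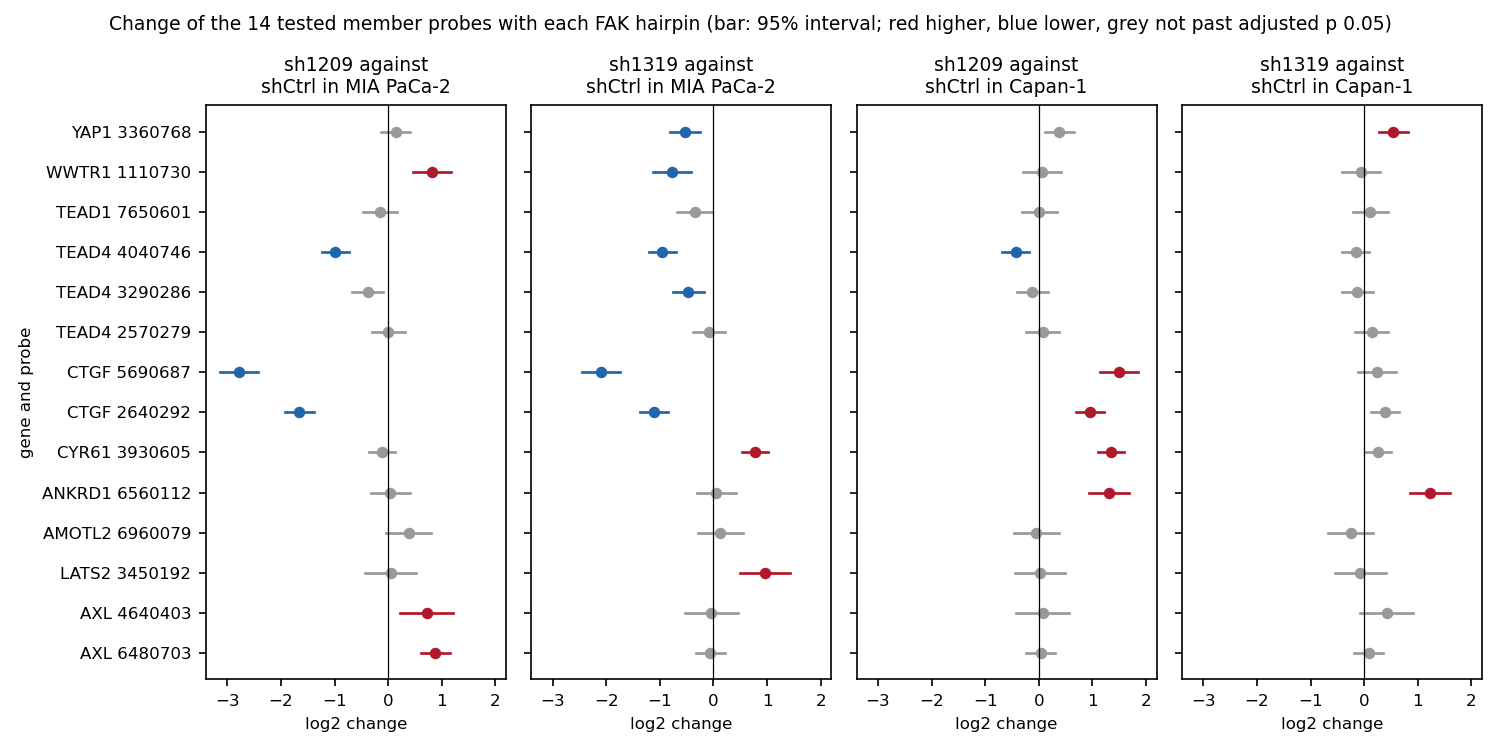
Log2 change against shCtrl of the 14 tested probes, 1 panel per hairpin and cell line, with points for the change and bars for its 95% interval. Red marks higher, blue lower and grey an adjusted p of 0.05 or more. CTGF is on the left in both MIA PaCa-2 panels and on the right with sh1209 in Capan-1.

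Counted over the 14 probes, sh1209 in MIA PaCa-2 changed 6, with 3 higher and 3 lower. Over all 24207 tested probes the share was 18.0%, with 9.05% higher and 8.99% lower. With sh1319 in MIA PaCa-2, 8 probes passed, 2 higher and 6 lower, against 24.3% of all probes (12.2% higher, 12.1% lower). For sh1209 in Capan-1, 5 passed, 4 higher and 1 lower, against 16.8% (8.14% higher, 8.69% lower). In Capan-1 with sh1319, 2 of 14 passed, both higher, which is 14.3% and near the 13.7% of all probes (6.95% higher, 6.77% lower). Counted by gene, 4, 6, 4 and 2 of the 10 had a probe that passed, as CTGF, TEAD4 and AXL have more than 1 tested probe. The median log2 change over the 14 probes was 0.02, -0.22, 0.06 and 0.13 in these comparisons, in the same order, beside medians over all probes between -0.01 and 0.01. Quantile normalization gives every array the same distribution, which largely sets those medians over all probes and their even shares. With median scaling the medians over all probes were 0.02, 0.04, 0.09 and 0.11. Of all calls in Capan-1, 81.7% with sh1209 and 85.3% with sh1319 were then higher. These comparisons share their shCtrl arrays within a cell line. The genes did not move as 1 group in MIA PaCa-2, where the probes that passed went both ways with each hairpin. In Capan-1 with sh1209 the 1 lower probe was TEAD4 probe 4040746, a call lost with median scaling (adjusted p = 0.74). The probes of the targets CTGF, CYR61 and ANKRD1 that passed there were all higher. Between the hairpins, 8 of 14 probes differed in MIA PaCa-2 (22.6% of all probes) and 3 of 14 in Capan-1 (11.3% of all probes), those 3 being both CTGF probes and CYR61.

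The response to FAK knockdown differed between the cell lines for CTGF, TEAD4, YAP1 and CYR61, with the last 2 depending on the setting. The response is the mean log2 change of the 2 FAK hairpins against shCtrl, and 6 of 14 probes passed the test of its difference between lines (14.4% of all probes), all of them lower in MIA PaCa-2. The response of CTGF by probe 5690687 was -2.44 in MIA PaCa-2, against 0.86 in Capan-1 (difference -3.30, SE 0.20, adjusted p = 9.9e-07), and by probe 2640292 it was -1.38 and 0.67 (difference -2.05, SE 0.15, adjusted p = 3.8e-06), where the difference without background correction was -1.20 and passed. The sixth probe, that of ANKRD1, was undetected on every MIA PaCa-2 array, so that no response could be measured in that line and its test only restates the rise in Capan-1. TEAD4 by probe 4040746 responded with -0.97 and -0.29 (difference -0.68, SE 0.14, adjusted p = 0.0079), and YAP1 with -0.19 and 0.47 (difference -0.66, SE 0.15, adjusted p = 0.014). The YAP1 difference was lost with median scaling (adjusted p = 0.075) and without shCtrl replicate 1 of either line (adjusted p = 0.059 in each case). The YAP1 response in MIA PaCa-2 averages a fall with sh1319 and a small positive value with sh1209. CYR61 differed by -0.47 (SE 0.14, adjusted p = 0.041), a call that was lost in 12 of 19 settings. PTK2 itself, by probe 450253, was lowered further in the MIA PaCa-2 groups than in those of Capan-1 (difference -1.17, SE 0.14, adjusted p = 2.1e-04). Its probe 2680750 gave a difference of 0.47 that did not pass (adjusted p = 0.15). The part of PTK2 in these differences was not tested.

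**Figure D4:**
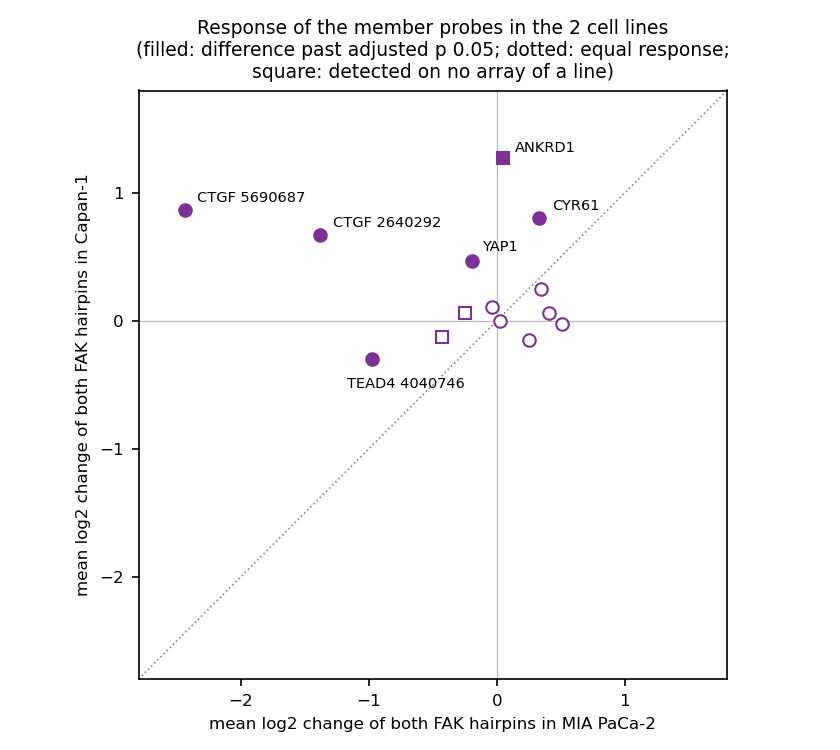
Mean log2 change of both FAK hairpins against shCtrl in MIA PaCa-2 (x axis) and Capan-1 (y axis), 1 point per probe, filled where the difference between lines passed the test and square where a line detected the probe on no array, so that its response there is not measured. The CTGF probes lie at -2.44 and -1.38 for MIA PaCa-2 and at 0.86 and 0.67 in Capan-1, far from the dotted line of equal response.

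Averaged over the 4 pairs of hairpin and cell line, 7 of 14 probes passed (25.2% of all probes), 3 higher and 4 lower. CTGF was lower by both probes (-0.79 and -0.35) and TEAD4 by 2 of its 3 (-0.63 and -0.28), while CYR61 (0.57), ANKRD1 (0.66) and AXL by probe 6480703 (0.24) were higher. The values of ANKRD1 and of TEAD4 probe 3290286 (-0.28) each rest on the 1 line that detected the probe. The AXL call was lost in 9 of 19 settings, that of TEAD4 probe 3290286 in 8 of 18, and that of CTGF probe 2640292 (-0.35) with median scaling (adjusted p = 0.31). For CTGF this average mixes falls in MIA PaCa-2 with rises in Capan-1. For AXL probe 6480703 it rests on sh1209 in MIA PaCa-2 (0.88). The change was -0.06 with sh1319 there and 0.03 and 0.09 with sh1209 and sh1319 in Capan-1, none past the threshold. For CYR61 it spans -0.11 with sh1209 in MIA PaCa-2 to 1.35 with sh1209 in Capan-1.

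Without FAK knockdown the cell lines already differed in several of these genes. With shCtrl, 9 of 14 probes differed between lines, 8 lower and 1 higher in Capan-1, against 42.1% of all probes. AXL in Capan-1 was at 19.6% of its MIA PaCa-2 level by probe 6480703 (log2 difference -2.35, adjusted p = 1.9e-08) and at 10.8% by probe 4640403 (log2 difference -3.22, adjusted p = 2.5e-07). TEAD4 was at 18.1% by probe 4040746 (log2 difference -2.46, adjusted p = 6.7e-09) and at least 1.70-fold lower by probe 3290286, which no Capan-1 array detected (adjusted p = 1.2e-04). WWTR1 was at 32.4% (log2 difference -1.62, adjusted p = 5.8e-06), and 1 of the 2 Capan-1 shCtrl arrays detected it. ANKRD1 went the other way and was at least 3.02-fold higher in Capan-1 (adjusted p = 1.3e-06). Without background correction the differences of AXL were -1.10 and -1.82 and that of WWTR1 was -0.63, all past the threshold. A bound sets the detected group against the lowest normalized signal of any detected probe on each array of the other. The bounds hold for the main processing only. Over the alternatives the log2 difference was as small as 0.79 for ANKRD1 and -0.30 for TEAD4 probe 3290286.

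CTGF and CYR61 differed by smaller amounts between the lines with shCtrl. The log2 difference of Capan-1 from MIA PaCa-2 for CTGF was -0.50 by probe 5690687 (adjusted p = 0.026) and -0.33 by probe 2640292 (adjusted p = 0.047). CYR61 differed by -0.38 (adjusted p = 0.018). All 3 calls were lost with median scaling (adjusted p of 0.17, 0.70 and 0.29). Over the settings, that of CTGF probe 2640292 was lost in 14 of 21, and those of CTGF probe 5690687 and CYR61 in 5 of 21 each. YAP1 (0.30, adjusted p = 0.077), LATS2 (0.03) and AMOTL2 (0.05) did not pass the test.

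Other components of the Hippo pathway and the TEAD family changed in part. Of 17 such genes (kinases, adaptors, angiomotins and the other TEAD factors), 15 had 16 tested probes, of which 2 rose and 3 fell with sh1209 in MIA PaCa-2, 2 rose and 3 fell with sh1319 in MIA PaCa-2, 4 rose and 1 fell with sh1209 in Capan-1, and 2 rose and 1 fell with sh1319 in Capan-1. That is 31.2%, 31.2%, 31.2% and 18.8% of the list, beside 18.0%, 24.3%, 16.8% and 13.7% of all probes. FRMD6, a FERM domain protein upstream of the kinases, rose in MIA PaCa-2 by 1.49 with sh1209 (adjusted p = 1.8e-05) and by 1.95 with sh1319 (adjusted p = 1.3e-06) by probe 7510309. STK3, the Hippo kinase MST2, fell there with sh1209 (log2 change -1.14, adjusted p = 1.5e-04) and with sh1319 (log2 change -0.60, adjusted p = 0.0069). SAV1, its scaffold, fell there by 0.95 with sh1319 (adjusted p = 0.0019), to a mean of 4.90, near background. SAV1 rose with sh1209 in Capan-1 (log2 change 0.96, adjusted p = 0.0031). In Capan-1 the largest rise was that of AMOT, the angiomotin that binds YAP, at 1.22 with sh1209 (adjusted p = 5.1e-04) and 1.20 with sh1319 (adjusted p = 8.1e-04). The AMOT mean with shCtrl in Capan-1 was 4.73, near background, which limits how well the size of its rise is measured. MOB1A, a coactivator of the LATS kinases, fell in Capan-1 with both hairpins (log2 changes -0.42, adjusted p = 0.039, and -0.51, adjusted p = 0.018).

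A further list of YAP and TEAD targets went both ways as well. Of 16 such genes, 13 had 20 tested probes, of which 6 rose and 2 fell with sh1209 in MIA PaCa-2, 5 rose and 5 fell with sh1319 in MIA PaCa-2, 6 rose and none fell with sh1209 in Capan-1, and 4 rose and 1 fell with sh1319 in Capan-1. These are 40.0%, 50.0%, 30.0% and 25.0% of the list, beside 18.0%, 24.3%, 16.8% and 13.7% of all probes, and several genes have more than 1 probe. Their median log2 changes were 0.09, -0.02, 0.18 and 0.09, against -0.01 to 0.01 over all probes, or 0.02 to 0.11 over all probes with median scaling. GADD45A is a stress-induced gene that is also a p53 target. By probe 4880673 it rose in MIA PaCa-2 by 1.65 with sh1209 (adjusted p = 8.1e-06) and by 1.91 with sh1319 (adjusted p = 1.5e-06). By probe 670255 it fell in Capan-1 with sh1319 (log2 change -0.73, adjusted p = 0.0013). Probe 4880673 gave -0.40 there and did not pass (adjusted p = 0.079). ASAP1, an ARF GTPase-activating protein, had the largest fall with sh1319 in MIA PaCa-2 (log2 change -1.39, adjusted p = 4.8e-06). CRIM1, a transmembrane protein that binds BMPs, had the largest fall with sh1209 in that line (log2 change -0.80, adjusted p = 0.027). The CRIM1 mean with sh1209 was 4.57, near background. With sh1319 in MIA PaCa-2 the same CRIM1 probe rose (log2 change 0.72, adjusted p = 0.034). IGFBP3, an IGF binding protein, had the largest rise in Capan-1, by 2.05 with sh1209 (adjusted p = 3.0e-05) and by 1.85 with sh1319 (adjusted p = 1.3e-04) by probe 6590132.

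**Figure D5:**
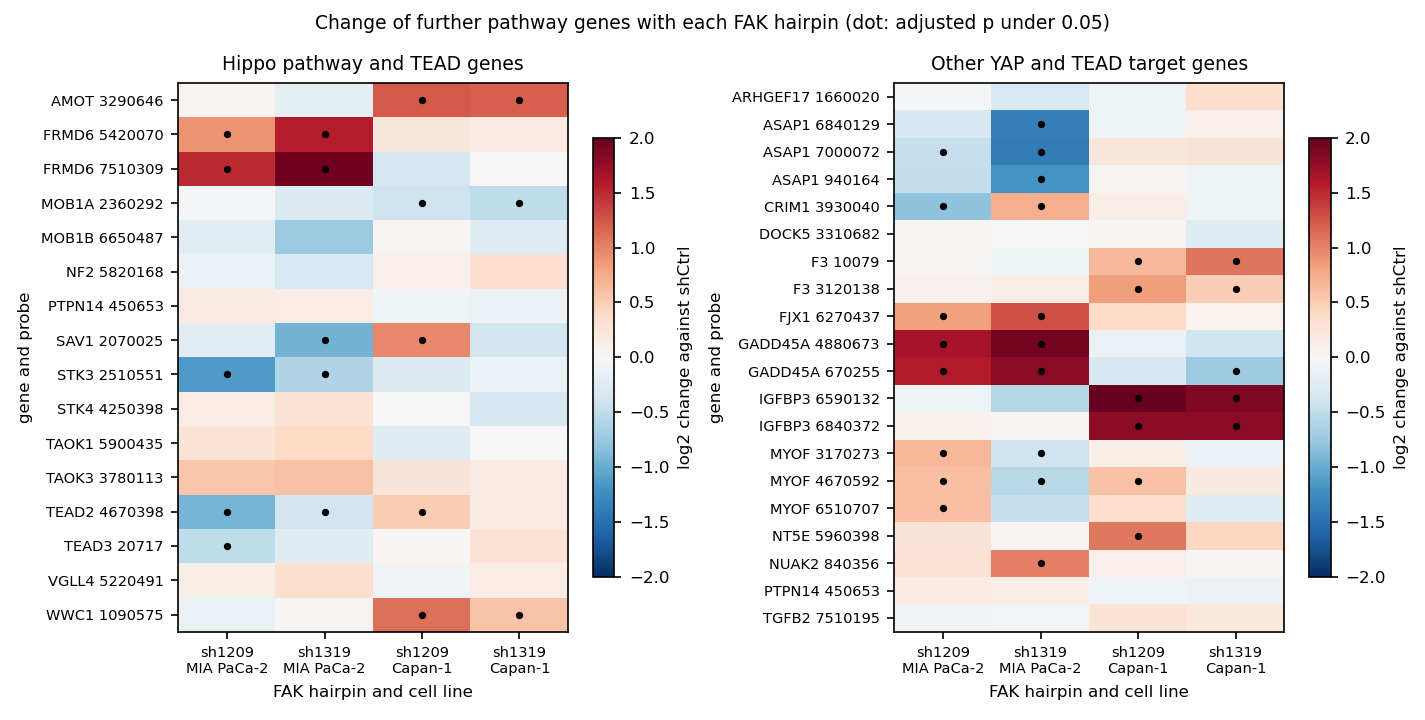
Log2 change against shCtrl (color) of the tested probes of 2 wider gene lists, with genes and probes as lines of the map and the 4 pairs of hairpin and cell line as columns; a dot marks an adjusted p under 0.05. Rises and falls stand side by side in each list, with FRMD6 and GADD45A highest in MIA PaCa-2 and IGFBP3 highest in Capan-1.

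With the mean of each cell line subtracted, the genes were also compared over the 12 arrays, which share 6 groups and 1 chip, so that the correlations describe these arrays only. Among the 10 genes, each by its brightest probe, the highest Pearson correlation was that of YAP1 with WWTR1 (0.71), followed by TEAD4 with CTGF (0.62). CTGF and CYR61 correlated at 0.32, and CTGF and ANKRD1 at 0.28. ANKRD1 was undetected on every MIA PaCa-2 array and WWTR1 was near background in Capan-1, which limits their correlations. Over all tested probes of other named genes, those most like CTGF were CLYBL (0.962), LIPG (0.962) and CERK (0.955), and those most like CYR61 were 2 probes of ASS1 (0.988 and 0.981) and TNIP1 (0.975). LIPG, endothelial lipase, changed with sh1209 and sh1319 by -1.09 and -1.06 in the MIA PaCa-2 groups and by 0.77 and 0.19 in those of Capan-1. ASS1, argininosuccinate synthase, changed by -0.29 and 0.88 in the MIA PaCa-2 groups and by 2.00 and 0.27 in those of Capan-1 by probe 110433.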

How the data were processed

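RNA of MIA PaCa-2 and Capan-1 cells, in 6 groups of 2 arrays by the labels, was hybridised to Illumina HumanHT-12 v4 arrays on 1 chip. The authors deposited probe intensities and detection p-values from GenomeStudio 2011.1 (per the submitters' processing notes), on a linear scale without normalization. The table holds 47320 lines, of which 92 are spike-in controls and were left out, and 28 columns without values. Background was corrected by limma's nec (normexp from the detection p-values, offset 16, which understates changes of dim probes), followed by quantile normalization and log2. Probes detected at p under 0.05 on at least 2 of 12 arrays were tested (24207 of 47228). limma 3.58.1 in R 4.3.3 fitted the means of the 6 groups (6 residual degrees of freedom). Benjamini-Hochberg adjustment ran over all tested probes of a comparison, with a threshold of 0.05. Precision is limited by the number of arrays. The fit was tested on simulated data.

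The members and gene lists were chosen with earlier results of these data known. All probes of the 10 genes are reported. From each wider list the largest rise and fall among called probes of each pair are named, and as genes of similar pattern the 3 probes with the highest correlation. Alternatives were no background correction, an offset of 50, median scaling, other filters, array weights, the replicate number as a block, 1 cell line alone, the methods' t-test and each array left out in turn.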

Additional observations from a re-analysis of the deposited data

Results flagged for a closer look

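The test of the difference between the cell lines marked 6 probes, given as the mean knockdown response in MIA PaCa-2 minus that in Capan-1 on the log2 scale. The difference was -3.30 for CTGF probe 5690687, -2.05 for CTGF probe 2640292, -0.68 for TEAD4 probe 4040746, -0.66 for YAP1 and -0.47 for CYR61. For ANKRD1 the fitted value was -1.22, but its probe was undetected on every MIA PaCa-2 array, so that it restates the rise in Capan-1 and no difference in response was measured. The YAP1 and CYR61 calls were lost in 3 and 12 of 19 settings. For CTGF the sign of the response itself is opposite in the lines, and all 4 arrays with a FAK hairpin lie below the shCtrl arrays in MIA PaCa-2 and above them in Capan-1. For TEAD4 probe 4040746 the response in the main processing is negative in both lines and differs in size. Its sign in Capan-1 is not settled, since with median scaling the change there was -0.16 with sh1209 and positive with sh1319. With 2 arrays in a group, single arrays could not be examined as outliers.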

How the results depend on the processing

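No called value changed its sign under any alternative. After Benjamini-Hochberg adjustment the methods' t-test called 0 of the 14 probes in each of the 4 comparisons with shCtrl and in both comparisons of hairpins, where it called between 0 and 4 of all tested probes. Unadjusted at 0.05, it called 6, 7, 6 and 2 of the 14 against shCtrl (sh1209 and sh1319 in MIA PaCa-2, then in Capan-1), and 6 and 3 between the hairpins in MIA PaCa-2 and Capan-1. With the filter of detection on all 12 arrays, 5 of the 8 called probes were left for sh1319 in MIA PaCa-2, and without background correction 4 probes passed for sh1319 in Capan-1 in place of 2. Leaving out each array in turn gave 5 to 6 called probes for sh1209 and 6 to 8 for sh1319 in MIA PaCa-2, 4 to 6 for sh1209 and 1 to 2 for sh1319 in Capan-1, 6 to 9 between the lines, 5 to 8 and 2 to 3 between the hairpins in MIA PaCa-2 and Capan-1, 4 to 6 for the difference in response and 5 to 7 for the average. The filter of detection on all 12 arrays leaves ANKRD1, WWTR1 and LATS2 untested. Apart from that and the adjusted t-test, no alternative ended the calls of both CTGF probes with either hairpin in MIA PaCa-2 and with sh1209 in Capan-1, of CYR61 with sh1319 in MIA PaCa-2 and with sh1209 in Capan-1, of ANKRD1 in Capan-1, or of WWTR1 and TEAD4 probe 4040746 in MIA PaCa-2.

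Median scaling lowered the counts over all probes from 4365 to 2243 and from 5887 to 3846 for sh1209 and sh1319 in MIA PaCa-2, from 4074 to 2459 and from 3322 to 2270 for sh1209 and sh1319 in Capan-1, from 2730 to 1217 between the hairpins in Capan-1, from 5478 to 3477 between them in MIA PaCa-2 and from 3475 to 1834 for the difference in response. Leaving out 1 array lowered them in Capan-1 to as few as 2251 for sh1209 (without shCtrl replicate 2), 1750 for sh1319 (without shCtrl replicate 1) and 1307 between the hairpins (without sh1209 replicate 1), and to 2217 for the difference in response (without Capan-1 shCtrl replicate 2). Median scaling moved the share of higher calls from 50.3% to 66.6% for sh1319 in MIA PaCa-2, from 48.4% to 81.7% and from 50.6% to 85.3% for sh1209 and sh1319 in Capan-1, from 50.6% to 34.7% between the hairpins in MIA PaCa-2, from 50.4% to 31.7% for the difference in response and from 49.6% to 78.0% for the average. The median of all probes shifted by 0.11 with sh1319 in Capan-1. The cause was not tested.

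Replicate numbers did not pair the arrays: over 15 pairs of groups, the deviations of same-numbered arrays correlated between -0.06 and 0.16, with 1 over 0.1. With the replicate block, AXL probe 4640403 with sh1209 in MIA PaCa-2 had an adjusted p of 0.060, the CTGF probe 2640292 difference between lines 0.056 and the CYR61 difference in response 0.052. Probes near background, such as those of LATS2, TEAD1 and WWTR1 in Capan-1, limit what can be measured for these genes.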
